A study of Rattus norvegicus with 15 samples.

Results

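The comparison described here set 12 aortic RNA samples of nephrectomized rats against 3 of sham rats. The nephrectomized (NX) rats had lost 5/6 of their kidney tissue, an operation that makes them uremic with the kidney tissue they keep. All rats were of the Sprague Dawley strain, and no genotype other than the strain is given. The 4 NX groups of 3 samples received vehicle or 1 of 3 agents, at doses of 0.08 µg/kg for paricalcitol, 0.04 µg/kg for alfacalcidol and 0.01 µg/kg for VS-105, by intraperitoneal injection 3 times a week for 12 days. Paricalcitol and VS-105 are agonists of the vitamin D receptor, and alfacalcidol is a precursor that the liver turns into the active hormone. Sham rats are described as untreated, age-matched normal rats, so nephrectomy and injection cannot be told apart in any comparison with them. Each sample was a pool of RNA from 2 rats of one group, hybridised to a one-colour Agilent array. Doses differed between the agonists, so agent and dose cannot be told apart where values of the agonist groups are set side by side. No agonist was tested directly against another.

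Each of 15739 features had 1 log2 signal per array. The pooled change of a feature is the mean of the 4 NX group means minus the sham mean, on the log2 scale, given with the standard error of the fit. A feature passed the pooled test at an adjusted p under 0.05, by limma with Benjamini-Hochberg adjustment over all features. It counted as a shared rise or fall when it also had all 4 NX group means on one side of the sham mean and all 12 NX arrays on one side of all 3 sham arrays. That definition chose 393 of the 15739 features (2.50%), 281 higher and 112 lower in NX rats. Of the 393, 292 carried a gene symbol. For features picked as shared, the lack of overlap with sham is set by this definition.

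Uremia is the retention of solutes that the kidney would clear, and it accelerates vascular disease. In the aorta it is known for hypertension-related remodelling, impaired relaxation by the endothelium and calcification of smooth muscle. Aortic RNA comes from smooth muscle, endothelium and adventitia with its nerves and fat, together with whatever blood stays in the vessel. In bulk samples, fewer cells of a type and less RNA per cell cannot be told apart.

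Genes of the contractile smooth muscle list had a mean log2 signal of 6.60 to 7.64 on the 15 arrays and those of the endothelial list 2.41 to 3.34. No gene of either list was under the highest of the 15 array minima, -2.71, on any array (0 of 16 and 0 of 13). Array medians over all features lay between 2.33 and 2.64. Transcripts of other tissues stood out on 3 NX arrays. The mean over skeletal muscle genes was 3.61 on NX-VS-105 array 1, with -0.52 to 0.59 elsewhere, and intestinal genes had means of 0.17 and 2.89 on NX-vehicle arrays 2 and 3, with -3.58 to -1.32 elsewhere. The main counts are given below with and without these 3 arrays.

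In the pooled test 1058 features rose (6.72%) and 486 fell (3.09%), which is 9.81% of all features. At an unadjusted p under 0.05 the count was 4900 (31.1%). The split depended on scaling: with array medians subtracted 965 rose and 1083 fell, and after quantile normalization 980 rose and 953 fell. Over all features the median pooled change was 0.06, so the calls lay on both sides of an almost unmoved centre. All 4 group means lay above sham in 1046 of the rises (6.65% of all features) and below in 445 of the falls (2.83%). Shared rises made up 1.79% of all features and shared falls 0.712%. Without the test, the 12 NX arrays all lay above the 3 sham arrays for 326 features (2.07%) and all below for 134 (0.851%). The features nearest the threshold are given for those with a symbol and no overlap between NX and sham arrays. Grem1 at a change of 1.43 (adjusted p = 0.04997) and Slc38a10 at 0.37 (adjusted p = 0.04997) were just inside. Pgm2 at 0.36 (adjusted p = 0.0500008) and Kcne2 at -0.64 (adjusted p = 0.0508) were just outside.

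These counts rested strongly on sham array 2. Without it, 12 features rose and 20 fell in the pooled test, and 11 rises and 20 falls were shared. Of the 393 shared features, 28 passed without it and 219 had an adjusted p under 0.1, with the median adjusted p moving from 0.0226 to 0.0926. Their sizes moved less: the median change of the shared rises went from 0.70 to 0.61 and that of the shared falls from -0.86 to -0.91. Sham array 2 was the lowest of the 3 sham arrays for 181 of the 281 shared rises, and its median signal was 0.20 below that of the other sham arrays. Without sham array 1, 184 features rose and 212 fell in the pooled test. Without any one of 7 NX arrays, rises numbered 1637 (NX-vehicle 1), 701 (NX-vehicle 3), 555 and 609 (NX-paricalcitol 2 and 3), and 503, 1621 and 414 (NX-alfacalcidol 1, 2 and 3), and falls on 5 of these numbered 314 (NX-vehicle 3), 267 (NX-paricalcitol 2), and 243, 873 and 193 (NX-alfacalcidol 1, 2 and 3). Shared rises numbered 160, 648 and 823 without sham array 1, sham array 3 or NX-vehicle array 1, and shared falls 393, 185 and 227 without sham array 3, NX-vehicle array 1 or NX-alfacalcidol array 2. With the 3 arrays that carried muscle or intestinal transcripts left out, 133 features rose and 82 fell, of which 105 and 60 were shared.

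Of 88 genes named by the rule that passed the pooled test, 73 lost the call without sham array 2. Of all pooled calls, 31 passed in each of the 15 fits that left out 1 array, and 28 of these were shared. Under all 29 alternative settings, 23 features passed, and all of these were shared. Platelet genes, clock genes, neuropeptide Y and a few genes of cell division and protein folding made up most of the named ones. The named features among the 23 that the naming rule had chosen were Cdca3, Ncaph, Nr1d1, Ezh2, Dnaja1, Gp1bb, Gp9, Treml1, Pf4, Npy and Clec1b. Bhlhe40, Nr1d2, Ephx1, Fzd8, Tpcn2, Pdzd2, Fam107a and Sh3pxd2a were also among them and are named here after their values were seen.

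**Figure D1:**
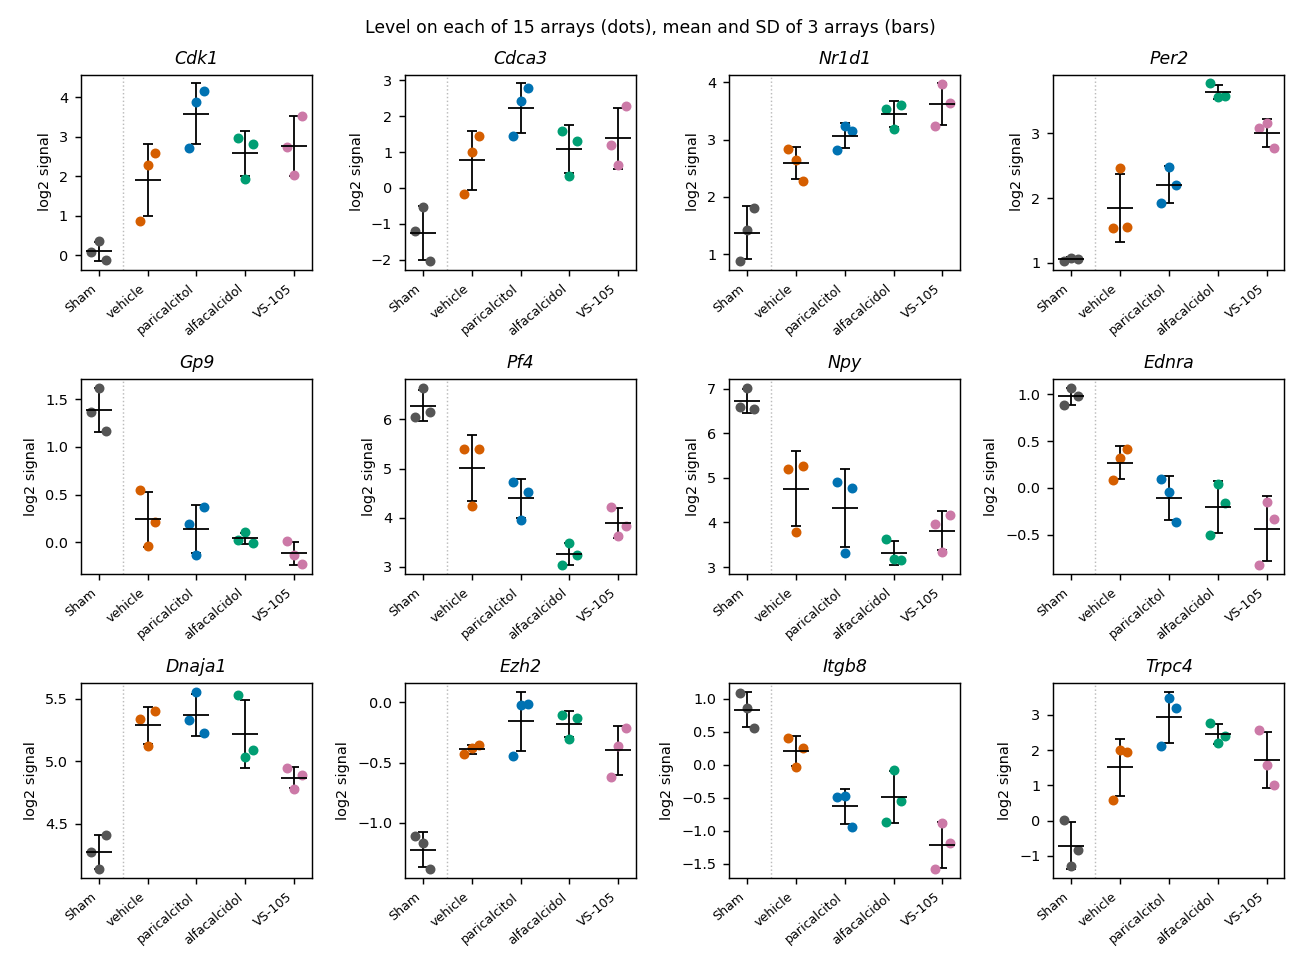
The log2 signal (vertical axis) of 12 genes is plotted on each of the 15 arrays by group (horizontal axis: sham and the 4 NX groups), with dots for arrays and bars for the mean and SD of 3 arrays. In every panel the 12 NX dots lie on one side of the 3 sham dots, as the definition of a shared change requires.

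Platelet transcripts fell in NX aortas. Platelets carry RNA made in their parent megakaryocytes, and the list held 6 measured genes of platelet surface receptors and granules. Of the 6, 4 fell and 0 rose, against 3.09% of all features that fell, and the list's median change was -1.16 against 0.06 over all features. The count of 4 was the same in each fit without 1 array.

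Gp9, part of the receptor with which platelets grip von Willebrand factor, was at 1.37, 1.62 and 1.16 on the sham arrays. On the NX arrays it was at 0.54, -0.03 and 0.21 with vehicle, 0.19, -0.13 and 0.37 with paricalcitol, 0.03, 0.11 and 0.00 with alfacalcidol and 0.02, -0.13 and -0.22 with VS-105. Every NX array lay below every sham array, with a gap wider than the range of the sham arrays themselves. Gp9 fell by 1.30 ± 0.14 (adjusted p = 0.00156), and by 1.18 without sham array 2 (adjusted p = 0.0173). Gp1bb, of the same receptor, was at 3.57, 3.79 and 3.29 in sham and ran from 2.11 to 3.06 with a median of 2.54 in NX. Its change was -1.02 ± 0.11 (adjusted p = 0.00156), again without overlap.

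Pf4, which encodes platelet factor 4 of the alpha granules, was at 6.04, 6.65 and 6.16 in sham and from 3.05 to 5.40 with a median of 4.08 in NX, a change of -2.14 ± 0.24 (adjusted p = 0.00202). By group its changes were -1.27, -1.89, -3.03 and -2.39 for vehicle, paricalcitol, alfacalcidol and VS-105, so the vehicle group lay nearest to sham. Treml1, a receptor of platelet alpha granules, was at 0.18, 0.67 and 0.21 in sham and from -1.71 to -0.33 with a median of -1.06 in NX, with a change of -1.37 ± 0.15 (adjusted p = 0.00156). Gp5 and F2rl2, the other two of the list, had changes of -0.15 (adjusted p = 0.391) and -0.20 (adjusted p = 0.417).

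Outside the list, Clec1b had the largest shared fall of all features with a symbol. It encodes CLEC-2, the platelet receptor for podoplanin. Sham arrays were at 2.72, 2.95 and 2.56 and NX arrays from -1.11 to 1.10 with a median of -0.16, a change of -2.72 ± 0.35, which is 6.61-fold lower (adjusted p = 0.00416). A pair of features without a symbol, ENSRNOT00000055179 and ENSRNOT00000036112, fell by 2.08 and 1.46 (adjusted p = 0.00156 each). The authors' deposited table describes both as similar to integrin alpha-IIb, a subunit of the platelet fibrinogen receptor.

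Of 4 erythroid genes, 1 fell, beside 3.09% of all features, and the list's median change was -1.34. Hbb, a beta globin chain of red cells, was at 10.18, 10.36 and 9.90 in sham and from 7.75 to 10.31 with a median of 9.04 in NX, a change of -1.18 that did not pass (adjusted p = 0.0801). NX-alfacalcidol array 2 was the array within the sham range, for Hbb and for 2 of the other 3 erythroid genes, Alas2 and Ahsp. The 1 that fell was Ahsp, the chaperone of alpha globin, at -1.91 ± 0.55 (adjusted p = 0.0470), and 4 fell without NX-alfacalcidol array 2. Ahsp lost its call in each of 12 fits that left out another array, the exceptions being NX-vehicle array 1 and NX-paricalcitol array 1. The mean level of the erythroid list was 4.27 to 4.80 in sham and 1.92 to 4.71 in NX, and that of the platelet list was 2.05 to 2.37 and 0.78 to 1.62. The part of blood content in the platelet result was not tested.

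Leukocyte lists were short, and their counts stand beside 6.72% of all features that rose and 3.09% that fell. S100a9, a calprotectin subunit of neutrophils and monocytes, was at 0.82, 1.81 and 0.49 in sham and from -2.29 to 0.40 with a median of -1.39 in NX, a change of -2.09 ± 0.49 (adjusted p = 0.0282). S100a8, its partner, changed by -2.22 ± 0.56 (adjusted p = 0.0331), with 1 NX-vehicle array among the sham values. Of the 12 NX values of S100a8, 3 lay under -2.71, the highest of the 15 array minima. The neutrophil list thus had 2 of 4 genes lower, 0 of them without sham array 1 or sham array 2, and 1 without sham array 3, NX-paricalcitol array 2, NX-alfacalcidol array 1 or NX-alfacalcidol array 3. Of 5 T cell genes, 2 were called lower. Cd247, the zeta chain of the T cell receptor complex, fell by 1.41 ± 0.36 (adjusted p = 0.0332). Cd5, a T cell co-receptor, was called lower (adjusted p = 0.0226), but 11 of its 12 NX values lay under -2.71, the highest of the 15 array minima. With values raised to that floor its change went from -2.43 to -1.17 and did not pass (adjusted p = 0.0551), which leaves 1 of the 5. The sham arrays themselves were far apart for these genes, Cd5 being at -2.36, -2.30 and 0.07 and Cd247 at -0.99, 0.95 and -0.87. Without sham array 2 neither passed, and Cd247 was also lost without NX-paricalcitol array 2 or NX-alfacalcidol array 3. Ccl5, a chemokine of T cells and platelets, was at 3.30, 3.91 and 3.48 in sham and from 2.10 to 3.28 with a median of 2.69 in NX, a change of -0.86 ± 0.22 (adjusted p = 0.0334) that was lost without any 1 of the sham arrays, NX-paricalcitol array 2 or NX-alfacalcidol array 3. None of 14 macrophage genes passed in the limma test, and 13 had a positive pooled change, with a median of 0.53. The groups were not alike: their medians were 0.66, 0.80, 0.05 and 0.73 for vehicle, paricalcitol, alfacalcidol and VS-105. List means on the 3 NX-alfacalcidol arrays, 2.66 to 2.77, lay within the sham range of 2.38 to 2.84, and the other 9 NX arrays lay above it. C1qc, a complement C1q chain that macrophages make, had the smallest p among them, at 0.63 (adjusted p = 0.0539). With NX-vehicle array 1 left out 7 macrophage genes passed, and 3, 2 and 1 passed without sham array 3, NX-alfacalcidol array 2 or NX-VS-105 array 2.

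**Figure D2:**
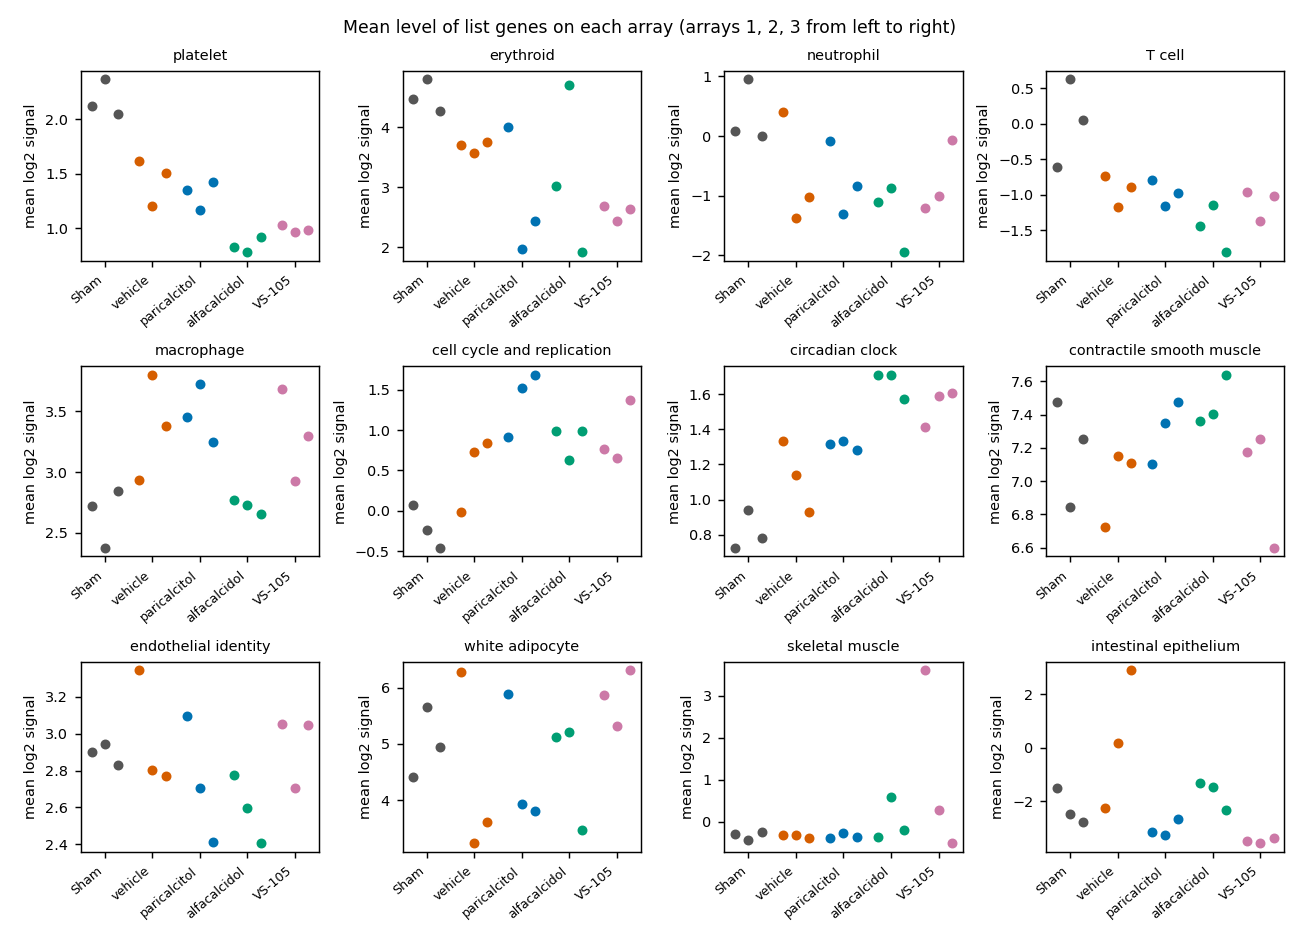
The mean log2 signal (vertical axis) of the measured genes of 12 lists is plotted for each array, with arrays grouped and coloured by group along the horizontal axis. Platelet genes lie between 2.05 and 2.37 in sham and between 0.78 and 1.62 in NX, while skeletal muscle genes stand out on NX-VS-105 array 1 and intestinal genes on NX-vehicle arrays 2 and 3.

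Genes of the circadian clock changed in both directions. The clock is a loop in which Bmal1, with Clock or Npas2, drives Per, Cry and Nr1d genes through E-box elements, and the Nr1d proteins repress Bmal1 in turn. Of 18 measured clock genes, 8 rose and 4 fell, against 6.72% of all features that rose and 3.09% that fell, and the median change was 0.53 against 0.06. Without sham array 2, 7 rose and 1 fell, without sham array 1, 2 fell, and in a fit that took the 12 NX arrays as 1 group 3 rose and 0 fell. The sources used here do not give the hour of tissue collection, so time of day cannot be told apart from group.

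Those E-box elements, with the letters CACGTG, were looked for on both strands of promoter windows from 250 bases before to 50 after the annotated start (RefSeq, build GRCr8). They were present in 3 of the 8 clock genes that rose (Ciart, Bhlhe40 and Tef). Of the 16 measured clock genes with a window, 4 held them. Among the 191 shared rises with a window 16.2% held them. The share was 9.32% of the 8809 measured genes with a window and 6.65% of all 27457 windows. A pair of them is shown, with the element in capitals, for shared rises that hold it. Tef lies at chr7:115206577-115206876 and Bhlhe40 at chr4:143174200-143174499, both on the plus strand.
Tef: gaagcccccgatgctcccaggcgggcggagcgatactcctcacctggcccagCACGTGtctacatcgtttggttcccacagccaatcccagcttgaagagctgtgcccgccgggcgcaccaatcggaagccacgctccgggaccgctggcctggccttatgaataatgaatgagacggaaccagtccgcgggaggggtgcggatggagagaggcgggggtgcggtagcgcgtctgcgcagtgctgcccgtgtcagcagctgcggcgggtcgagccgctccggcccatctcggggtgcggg
Bhlhe40: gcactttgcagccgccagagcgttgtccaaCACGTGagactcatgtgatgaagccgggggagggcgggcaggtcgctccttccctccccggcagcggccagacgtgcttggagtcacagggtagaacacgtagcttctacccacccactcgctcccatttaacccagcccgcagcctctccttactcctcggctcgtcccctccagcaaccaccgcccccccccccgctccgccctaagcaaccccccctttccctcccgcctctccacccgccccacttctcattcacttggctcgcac

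Nr1d1, the repressor REV-ERB alpha, was at 0.89, 1.42 and 1.81 on the sham arrays. On the NX arrays it was at 2.84, 2.65 and 2.28 with vehicle, 2.82, 3.23 and 3.15 with paricalcitol, 3.54, 3.18 and 3.59 with alfacalcidol and 3.23, 3.97 and 3.64 with VS-105. The groups did not overlap with sham, and the change was 1.80 ± 0.20 (adjusted p = 0.00156, and 0.0173 without sham array 2). Per2, a repressor of the loop, was within 0.05 on the 3 sham arrays, at 1.03, 1.08 and 1.06, and ran from 1.54 to 3.77 with a median of 2.63 in NX. It changed by 1.62 ± 0.18 (adjusted p = 0.00156), and the 4 NX groups differed from each other (moderated F test, adjusted p = 0.0117), with changes of 0.79, 1.15, 2.58 and 1.95.

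Tef, a PAR bZIP factor of clock output whose promoter is shown above, was at 2.90, 3.46 and 3.48 in sham and from 3.50 to 5.58 with a median of 4.80 in NX, a change of 1.48 ± 0.18 (adjusted p = 0.00316). Bhlhe40, the repressor DEC1, was at 0.13, 0.89 and 0.76 and from 1.22 to 2.62 with a median of 2.21, a change of 1.52 ± 0.22 (adjusted p = 0.00674). Neither overlapped with sham. Nr1d2, the REV-ERB beta repressor, and Rora, the activator that competes with both Nr1d proteins, were also shared rises, at 1.22 ± 0.17 (adjusted p = 0.00674) and 0.56 ± 0.14 (adjusted p = 0.0349). Ciart, a clock repressor, and Dbp, another output factor, rose with a single NX-vehicle array among the sham values. Their changes were 3.10 ± 0.36 (adjusted p = 0.00221) and 2.51 ± 0.35 (adjusted p = 0.00674). All 3 sham values of Ciart lay under -2.71, and with values raised to that floor its change was 2.58 (adjusted p = 0.00112).

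On the activator side, Clock was the one shared fall. It was at 1.15, 0.73 and 0.45 in sham and from -0.57 to 0.43 with a median of 0.01 in NX, a change of -0.84 ± 0.14 (adjusted p = 0.0119). Bmal1 fell by 1.50 ± 0.24 in the pooled test (adjusted p = 0.0115) but not in one pattern: its changes were -0.43, -0.40, -3.02 and -2.17 for vehicle, paricalcitol, alfacalcidol and VS-105. The NX groups differed from each other for Bmal1 (moderated F test, adjusted p = 0.00804), and 9 of 12 NX arrays lay below all sham arrays. Npas2, the Clock paralogue, and Nfil3, a repressor of the genes that Dbp and Tef activate, fell by 0.78 ± 0.18 (adjusted p = 0.0289) and 1.49 ± 0.39 (adjusted p = 0.0360), with overlap. Clock genes beyond Nr1d1, Per2, Ciart and Bmal1 are outside the naming rule and were chosen after their values were seen.

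Cell division genes supplied most of the largest shared rises. Of the 15 shared rises with the largest change among those named by the rule, 10 encode proteins of mitosis, its control or nucleotide supply. In the list for cell cycle and DNA replication 15 of 25 genes rose and 0 fell, 11 of the 15 without overlap, against 6.72% of all features that rose. All 25 had a positive change, and their median was 0.94 against 0.06 over all features. Without sham array 2 the count fell to 1. Without the 3 arrays rich in muscle or intestinal transcripts it was 8, as in a fit that took the 12 NX arrays as 1 group.

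Promoters of mitotic genes typically carry a CHR element with the letters TTTGAA and CCAAT boxes. Among the cell cycle genes that rose, 5 of the 12 with a window (Top2a, Cdk1, Ccnb2, Prc1 and Plk1) held TTTGAA, against 11.6% of the measured genes' windows and 18.1% of all windows. All 5 also held CCAAT, which 38.1% of the measured genes' windows held. In the whole cell cycle list 9 of 21 windows (42.9%) held TTTGAA and 16 (76.2%) held CCAAT. For the genes that rose the shares were 41.7% and 75.0%, so neither motif set them apart from the list. Cdk1 and Prc1 are shown as shared rises that hold both, with these letters on either strand in capitals (ATTGG is CCAAT on the other strand). Cdk1 lies at chr20:19265043-19265342 and Prc1 at chr1:143659231-143659530, both on the plus strand.
Cdk1: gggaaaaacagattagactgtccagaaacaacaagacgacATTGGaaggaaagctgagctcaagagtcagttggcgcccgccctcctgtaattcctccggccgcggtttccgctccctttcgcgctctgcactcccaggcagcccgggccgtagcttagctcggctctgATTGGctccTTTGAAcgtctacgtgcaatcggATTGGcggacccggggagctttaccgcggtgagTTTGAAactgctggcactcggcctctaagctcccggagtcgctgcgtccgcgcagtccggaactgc
Prc1: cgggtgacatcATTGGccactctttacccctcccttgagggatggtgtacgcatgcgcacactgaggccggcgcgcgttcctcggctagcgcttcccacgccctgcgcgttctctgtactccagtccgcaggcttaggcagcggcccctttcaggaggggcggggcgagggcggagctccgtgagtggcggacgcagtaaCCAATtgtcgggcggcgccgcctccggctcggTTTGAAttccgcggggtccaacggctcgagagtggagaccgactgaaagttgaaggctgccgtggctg

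Cdk1, the kinase that starts mitosis, was at 0.08, 0.35 and -0.12 on the sham arrays. On the NX arrays it was at 0.88, 2.28 and 2.60 with vehicle, 2.72, 3.89 and 4.16 with paricalcitol, 2.98, 1.94 and 2.82 with alfacalcidol and 2.75, 2.04 and 3.54 with VS-105. The lowest NX value, on NX-vehicle array 1, was still above the highest sham value. Cdk1 changed by 2.61 ± 0.40, or 6.11-fold (adjusted p = 0.00969), and by 2.74 without sham array 2 (adjusted p = 0.0568). Prc1, which bundles microtubules of the spindle midzone, was at -1.02, -1.36 and -1.81 in sham and from -0.74 to 2.07 with a median of 0.78 in NX, a change of 2.16 ± 0.37 (adjusted p = 0.0130). As for Cdk1, NX-vehicle array 1 was the lowest NX array for Prc1 and the group changes were 1.48, 2.92, 1.93 and 2.32.

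Cdca3, which helps to release the brake on mitotic entry, was at -1.20, -0.52 and -2.03 in sham and from -0.16 to 2.79 with a median of 1.38 in NX. Its change was 2.62 ± 0.44 (adjusted p = 0.0126) and 2.98 without sham array 2 (adjusted p = 0.0461). Ncaph, a condensin subunit, changed by 2.24 ± 0.36 (adjusted p = 0.0115). These were the 2 of the largest mitotic rises that passed whichever array was left out. Top2a, the topoisomerase of dividing cells, had a change of 2.75 ± 0.42 (adjusted p = 0.00969), with a sham mean under the highest of the 15 array minima, -2.71, so it is outside the ranked rises. Ccna2, Cks2, Pimreg, Knstrn, Ndc80 and Rrm2, for cyclin A2, a Cdk subunit, a mitotic regulator, kinetochore proteins and ribonucleotide reductase, changed by 2.20, 2.18, 2.34, 2.08, 2.07 and 2.02, with adjusted p from 0.0126 to 0.0178.

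Ezh2, the histone methyltransferase of the polycomb complex, moved less but more evenly. It was at -1.11, -1.17 and -1.38 in sham and from -0.62 to -0.01 with a median of -0.33 in NX, and its change was 0.94 ± 0.12 (adjusted p = 0.00316). Group changes were 0.83, 1.06, 1.04 and 0.82. Genes for DNA synthesis that rose included Tyms at 0.75 (adjusted p = 0.0166), Tk1 at 1.32 (adjusted p = 0.0145) and Pcna at 0.53 (adjusted p = 0.0357). They are named after their values were seen.

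**Figure D3:**
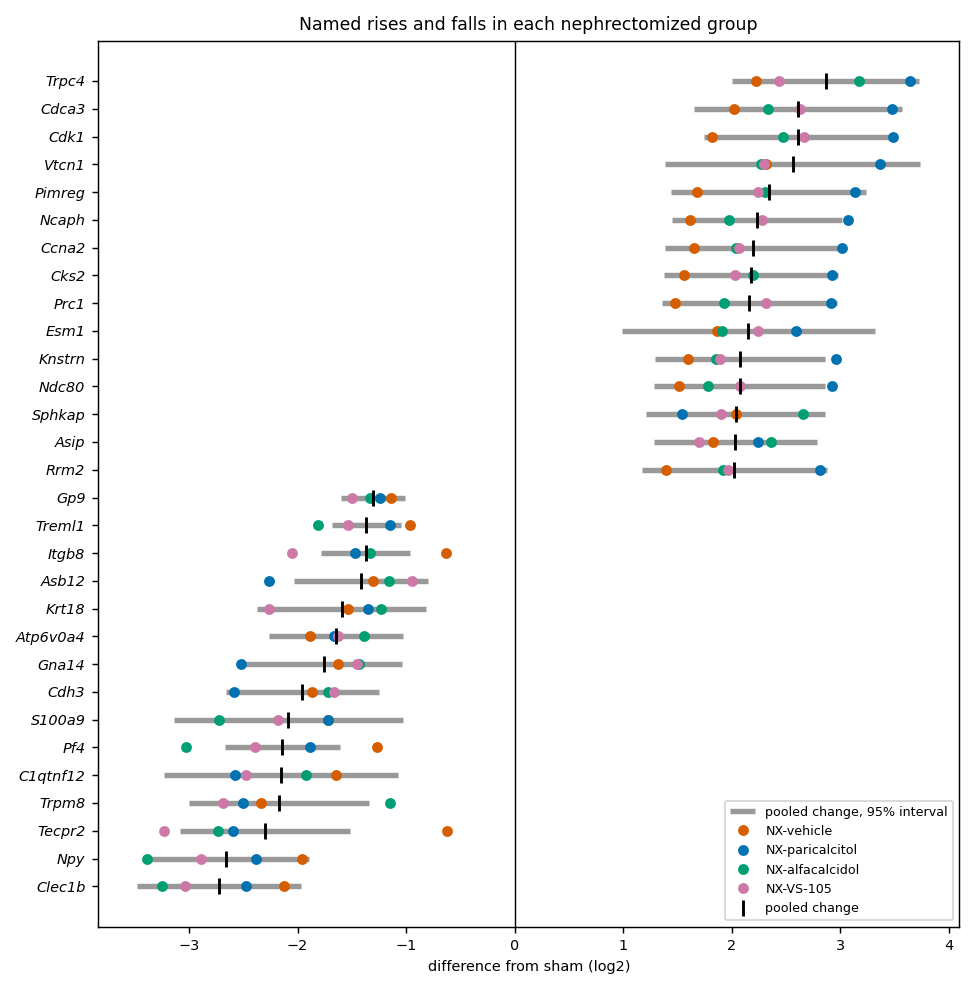
The difference from sham (log2, horizontal axis) is plotted for the 15 largest shared rises and the 15 largest shared falls (vertical axis), with coloured dots for the 4 NX groups, a black tick for the pooled change and a grey bar for its 95% interval. All 4 dots lie on one side of 0 for each gene, as the definition of a shared change requires. For Tecpr2, Itgb8 and Pf4 the vehicle dot lies nearest to 0.

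In the nerve list, neuropeptide Y fell, and which cells its RNA came from was not tested. Npy, a cotransmitter that sympathetic nerves release onto vessels, was at 6.58, 7.02 and 6.54 on the sham arrays. On the NX arrays it was at 5.20, 3.79 and 5.27 with vehicle, 4.90, 3.33 and 4.77 with paricalcitol, 3.63, 3.18 and 3.15 with alfacalcidol and 3.96, 3.33 and 4.16 with VS-105. The highest NX value was more than 1 log2 unit below the lowest sham value. Npy changed by -2.66 ± 0.35, which is 6.3-fold lower (adjusted p = 0.00470, and 0.0461 without sham array 2). Slc6a2, the noradrenaline transporter of the same nerves, was at 1.88, 1.41 and 1.27 in sham and from -0.51 to 1.23 with a median of 0.42 in NX, a change of -1.06 ± 0.31 (adjusted p = 0.04997). It lay at the threshold and passed only when no array or 1 of 5 arrays (NX-vehicle 1, NX-paricalcitol 1, NX-alfacalcidol 2, NX-VS-105 1 or NX-VS-105 3) was left out. Uchl1, a ubiquitin hydrolase abundant in neurons, went up: it was at 3.46, 2.77 and 2.44 in sham and from 3.71 to 4.95 with a median of 4.41 in NX, a change of 1.54 ± 0.22 (adjusted p = 0.00674, and 0.0599 without sham array 2). The other 7 of 10 nerve and Schwann cell genes did not pass, and the list's median was -0.15. Its 1 rise and 2 falls stand beside 6.72% and 3.09% of all features.

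Among vasoactive genes, the endothelin A receptor fell. Endothelin-1, made from Edn1, constricts smooth muscle through that receptor. Ednra was at 0.89, 1.07 and 0.99 in sham and from -0.82 to 0.42 with a median of -0.10 in NX, without overlap, and its change was -1.10 ± 0.15 (adjusted p = 0.00674, and 0.0548 without sham array 2). Its group changes were -0.71, -1.09, -1.19 and -1.42. Edn1 itself was called higher at 0.64 ± 0.19 (adjusted p = 0.0496), but its group changes were 0.97, 1.01, 0.01 and 0.58, so the alfacalcidol group was at the sham level. It kept the call in 4 of the 15 fits without 1 array, those without NX-vehicle array 1, NX-paricalcitol array 1, NX-alfacalcidol array 2 or NX-VS-105 array 2.

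Ddah1, which degrades the inhibitor of nitric oxide synthase that accumulates in renal failure, was at 5.66, 5.19 and 5.58 in sham and from 3.22 to 5.17 with a median of 4.49 in NX. It changed by -1.06 ± 0.26 (adjusted p = 0.0307, and 0.0884 without sham array 2). Nos3, the endothelial nitric oxide synthase, was at -0.26 (adjusted p = 0.421). In all, 1 of 19 vasoactive genes rose and 2 fell, with a median of 0.03. The 1 rise is near the 6.72% of all features that rose, and the 2 falls stand beside 3.09% that fell. None fell without sham array 2 and 1 fell without sham array 1 or sham array 3. The rise numbered 2 without NX-vehicle array 1.

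Channel genes included the largest shared rise that the rule named. Trpc4, a calcium-permeable channel of the TRPC family found in endothelium and smooth muscle, was at 0.01, -1.30 and -0.84 in sham. In NX it was at 0.58, 2.00 and 1.95 with vehicle, 2.11, 3.48 and 3.21 with paricalcitol, 2.77, 2.20 and 2.40 with alfacalcidol and 2.58, 1.57 and 1.03 with VS-105. All NX arrays were above all sham arrays for Trpc4, and the change was 2.87 ± 0.40, or 7.3-fold (adjusted p = 0.00662, and 0.0572 without sham array 2). Trpm8, the cold and menthol channel, was at 2.65, 1.90 and 1.76 in sham and from -1.70 to 1.36 with a median of -0.04 in NX, a change of -2.17 ± 0.38 (adjusted p = 0.0135, and 0.0653 without sham array 2).

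Ano1, the calcium-activated chloride channel of smooth muscle, rose by 1.22 ± 0.22 (adjusted p = 0.0141) with overlap. Slc12a2, the sodium-potassium-chloride cotransporter, rose by 0.61 (adjusted p = 0.0250). Slc12a2 was chosen after its values were seen. Together 4 of 24 channel and transporter genes rose and 1 fell, beside 6.72% and 3.09% of all features, with a median of -0.16 against 0.06. A single fall among 24 is close to the share of all features. Without sham array 2 the counts were 0 and 0, and with each array's median subtracted 4 rose and 4 fell. The falls numbered 3 without sham array 3, and 2 without NX-vehicle array 1, NX-paricalcitol array 1 or NX-alfacalcidol array 2.

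Signalling genes among the large falls included a receptor subunit, a G protein and a cadherin. Itgb8, the integrin beta-8 subunit that activates latent TGF-beta, was at 1.09, 0.86 and 0.56 in sham and from -1.58 to 0.40 with a median of -0.52 in NX, a change of -1.37 ± 0.19 (adjusted p = 0.00657, and 0.0461 without sham array 2). Gna14, a G protein alpha subunit of the Gq family, was at -0.91, -0.92 and -0.02 and from -3.52 to -1.53 with a median of -2.33, a change of -1.76 ± 0.33 (adjusted p = 0.0163). Cdh3, P-cadherin, was at 0.80, 0.91 and 1.30 and from -2.38 to 0.02 with a median of -0.88, a change of -1.96 ± 0.33 (adjusted p = 0.0119). None of the 3 overlapped with sham. For Gna14, 4 of the 12 NX values lay under -2.71, the highest of the 15 array minima. Gna14 and Cdh3 lost the call without sham array 2 (adjusted p = 0.0653 each).

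The remaining large falls were C1qtnf12, an insulin-sensitising adipokine, Tecpr2 of autophagy, Atp6v0a4 of the proton pump, Krt18, a keratin of simple epithelium and mesothelium, and Asb12, an ankyrin repeat protein. Their changes were -2.16, -2.30, -1.64, -1.59 and -1.42, with adjusted p from 0.0114 (Tecpr2) to 0.0274 (C1qtnf12). Of the 12 NX values, 3 of Tecpr2 and 2 of Asb12 lay under -2.71, the highest of the 15 array minima. Tecpr2 and Atp6v0a4 lost the call without sham array 2 (adjusted p = 0.0653 and 0.0692). C1qtnf12 and Krt18 lost the call without any 1 of the sham arrays, and Asb12 without sham array 1 or sham array 2. Beside them, 0 of 13 white adipocyte genes passed in the limma test, and Krt18 was 1 of 2 measured mesothelial genes. Among the remaining large rises, Vtcn1, a B7-family ligand that restrains T cells, was at 0.23, -1.67 and -0.17 in sham and from 0.62 to 4.07 with a median of 1.84 in NX, a change of 2.56 ± 0.54 (adjusted p = 0.0225). Esm1, the proteoglycan endocan of activated endothelium, was at -0.18, 0.22 and -0.16 and from 0.96 to 3.95 with a median of 1.81, a change of 2.15 ± 0.54 (adjusted p = 0.0320). As shared rises, neither overlapped with sham by definition. Vtcn1 lost its call without sham array 2 (adjusted p = 0.121). Esm1 lost its call without any 1 of the sham arrays, NX-alfacalcidol array 1 or NX-alfacalcidol array 3. Sphkap, an anchoring protein for protein kinase A, and Asip, the agouti signalling protein, rose by 2.04 (adjusted p = 0.0159) and 2.03 (adjusted p = 0.0126). Both lost the call without sham array 2 (adjusted p = 0.0837 and 0.0653), and Sphkap also without sham array 1.

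In the TGF-beta and BMP list 6 of 30 genes rose and 2 fell, beside 6.72% and 3.09% of all features, with a median of 0.41 against 0.06. Shared members were Grem1, a secreted BMP antagonist, at 1.43 (adjusted p = 0.04997) and Fst, follistatin, which binds activin, at -0.83 (adjusted p = 0.0288). Bmp6 rose by 1.74, and its intracellular targets and inhibitors Id1 and Smad6 by 1.22 and 0.93, all with overlap. Acvr1, a BMP type I receptor, rose by 0.77 and Tgfb3 by 0.56, and Inhbb, the activin beta B subunit, fell by 0.42 (adjusted p = 0.0241). Adjusted p of the 6 rises lay between 0.0369 and 0.04997. The rises numbered 0 without sham array 1, sham array 2, NX-vehicle array 3, NX-alfacalcidol array 1 or NX-alfacalcidol array 3. They numbered 1 to 3 without sham array 3, NX-vehicle array 2, NX-paricalcitol arrays 2 or 3, or any NX-VS-105 array. The falls numbered 0 without sham array 1 or sham array 2 and 1 without sham array 3. Bmp6, Id1, Smad6, Acvr1 and Grem1 were chosen after their values were seen.

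Extracellular proteases and their inhibitors rose in part, and fibrillar matrix genes did not pass. Of 19 protease genes 6 rose and 0 fell, beside 6.72% and 3.09% of all features, with a median of 0.55 against 0.06 over all features. Ctsl, a lysosomal cathepsin that also acts outside cells, was the one without overlap, at 6.59, 6.24 and 6.65 in sham and from 6.79 to 7.38 with a median of 6.98 in NX, a change of 0.55 ± 0.12 (adjusted p = 0.0246). Ctsk, a collagen-degrading cathepsin, rose by 0.98 (adjusted p = 0.0357). Plat, Cst3 and Mmp2, chosen after their values were seen, rose by 0.92, 0.72 and 0.57. The count was 0 without sham array 1, sham array 2 or the 3 arrays rich in muscle or intestinal transcripts, and 1 to 3 without sham array 3, NX-vehicle arrays 2 or 3, NX-paricalcitol arrays 2 or 3, NX-alfacalcidol arrays 1 or 3, or NX-VS-105 arrays 1 or 2.

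In the basement membrane list 2 of 11 genes rose, beside 6.72% of all features, Col18a1 at 0.87 (adjusted p = 0.0338) and Col4a3 at 0.81 (adjusted p = 0.0413), neither with all NX arrays on one side of sham. Neither passed without any 1 of the sham arrays, NX-paricalcitol array 3, NX-alfacalcidol array 1 or NX-alfacalcidol array 3, and 1 passed without NX-vehicle arrays 2 or 3, NX-paricalcitol array 2 or NX-VS-105 array 2. None of 21 fibrillar and elastic matrix genes passed in the limma test. Col1a1, the alpha-1 chain of type I collagen, changed by -0.08 (adjusted p = 0.829). Fn1, fibronectin, had the smallest p of that list, at 1.35 (adjusted p = 0.0605). Matrix genes that rose numbered 4 when NX-vehicle array 1 was left out, 2 for NX-paricalcitol array 1 and 1 for NX-alfacalcidol array 2.

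Of 34 cytosolic chaperone genes, 8 rose and 0 fell, against 6.72% of all features that rose and 3.09% that fell. Their median change was 0.22 against 0.06 over all features, and the other 26 did not pass. Dnaja1, with the smallest p of the list, encodes an Hsp40 co-chaperone that hands clients to Hsp70, and heat shock factors drive such genes through repeats of GAA and its complement. The letters GAANNTTC, which read the same on both strands, were in 4 of the 7 windows of chaperone genes that rose (Dnaja1, Hspa8, Cacybp and Chordc1) and in 13 of the 27 windows of the whole list. Among the measured genes' windows 5.73% held them. The Dnaja1 window at chr5:60638154-60638453, plus strand, is shown with them in capitals.
Dnaja1: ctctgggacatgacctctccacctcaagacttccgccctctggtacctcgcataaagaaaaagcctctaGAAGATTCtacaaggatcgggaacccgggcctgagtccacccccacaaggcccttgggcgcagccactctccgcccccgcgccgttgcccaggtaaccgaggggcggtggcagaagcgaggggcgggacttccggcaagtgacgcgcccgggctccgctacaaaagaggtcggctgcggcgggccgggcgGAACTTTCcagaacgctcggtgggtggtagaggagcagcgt

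Dnaja1 was at 4.28, 4.14 and 4.41 on the sham arrays. On the NX arrays it was at 5.34, 5.12 and 5.40 with vehicle, 5.33, 5.55 and 5.22 with paricalcitol, 5.53, 5.04 and 5.09 with alfacalcidol and 4.94, 4.78 and 4.89 with VS-105. The groups did not overlap with sham, and the change was 0.91 ± 0.12 (adjusted p = 0.00454, and 0.0415 without sham array 2). In contrast to most shared rises, the vehicle group lay among the agonist groups. Hspa8, the constitutive Hsp70, rose by 0.68 ± 0.16 (adjusted p = 0.0289), with a VS-105 group change of 0.19. Dnaja4 was a further shared rise, at 0.51 (adjusted p = 0.0290).

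The other 5 chaperone genes that rose are named after their values were seen. They were Chordc1 at 0.38, Cacybp at 0.46 and Dnaja2 at 0.48, which help Hsp90 or Hsp70, and Cct2 at 0.70 and Cct5 at 0.67, of the chaperonin that folds actin and tubulin. The count was 1 without sham array 1 or sham array 2 and 2 without the 3 arrays rich in muscle or intestinal transcripts. Leaving out NX-vehicle array 3 gave 5, NX-paricalcitol array 2 or 3 gave 4, NX-alfacalcidol array 1 gave 3 and NX-alfacalcidol array 3 gave 2. Among 23 genes of the unfolded protein response of the endoplasmic reticulum 3 rose, beside 6.72% of all features, with a list median of 0.08: Herpud1 at 0.72 (adjusted p = 0.0115), Dnajb9 at 0.86 (adjusted p = 0.0291) and Manf at 0.52 (adjusted p = 0.0391), which serve the disposal or folding of secreted proteins. That count was 0 without sham array 2 and 1 without sham array 1 or NX-alfacalcidol array 3.

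Antioxidant genes rose in 5 of 25 cases, beside 6.72% of all features, with 0 falls and a median of 0.36 against 0.06. Txnrd1, thioredoxin reductase, was at 0.52, 0.03 and 0.49 in sham and from 0.72 to 1.34 with a median of 0.96 in NX, a shared rise of 0.64 ± 0.12 (adjusted p = 0.0184). Nfe2l2, which encodes the antioxidant regulator NRF2, rose by 0.56 (adjusted p = 0.0290), and Gpx3, the glutathione peroxidase of plasma, by 1.07 (adjusted p = 0.0332). Hmox1 and Prdx6, chosen after their values were seen, rose by 0.68 and 0.56. The count was 0 without sham array 2, 1 without sham array 1, 9 without NX-vehicle array 1, and 2 or 3 without NX-paricalcitol arrays 2 or 3, NX-alfacalcidol arrays 1 or 3, or NX-VS-105 array 3. Ephx1, a microsomal epoxide hydrolase outside the list, was at 1.04, 1.38 and 1.25 in sham and from 1.72 to 3.22 with a median of 2.49 in NX, a shared rise of 1.21 ± 0.17 (adjusted p = 0.00674).

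Single genes of other lists were shared rises. Hif1a, the oxygen-regulated transcription factor subunit, was at -0.24, -0.35 and 0.09 in sham and from 0.31 to 1.57 with a median of 0.79 in NX, a change of 0.99 ± 0.18 (adjusted p = 0.0151), and 0 of the other 14 hypoxia genes passed. Rbm3, a cold-inducible RNA-binding protein, was at 3.10, 2.88 and 3.58 and from 3.80 to 4.66 with a median of 4.43, a change of 1.11 ± 0.20 (adjusted p = 0.0141), and Hnrnpa2b1, a splicing factor, rose by 0.51 (adjusted p = 0.0205). Neither Hif1a nor those RNA-binding genes passed without sham array 2. Klf9, a transcription factor that glucocorticoids induce, rose by 0.87 ± 0.14 (adjusted p = 0.0115), and Sgk1, a kinase of the same response, by 0.96 ± 0.22 (adjusted p = 0.0267) with overlap. They were the 2 of 14 glucocorticoid response genes that passed, beside 6.72% of all features that rose, and the list's median was 0.33. Both lost the call without sham array 2 (adjusted p = 0.0653 and 0.126), and Sgk1 also without sham array 1. Thy1, a surface protein of fibroblasts and neurons, was a shared rise of 1.36 ± 0.30 (adjusted p = 0.0242), lost without sham array 1 or sham array 2. B2m, of the class I antigen complex, rose by 0.47 (adjusted p = 0.0311) and Eef2, the translation elongation factor, by 0.58 (adjusted p = 0.0251), and both were lost without sham array 1 or sham array 2, and B2m also without sham array 3, NX-alfacalcidol array 1 or NX-alfacalcidol array 3.

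Tnnc1, troponin C of slow skeletal and cardiac muscle, had a large rise beside sarcomere genes that did not pass. It was at 0.68, 1.19 and 1.07 in sham and from 1.05 to 6.19 with a median of 4.93 in NX, a change of 3.59 ± 0.65 (adjusted p = 0.0141, and 0.0666 without sham array 2). The lowest NX array lay within the sham range. With the array rich in skeletal muscle genes and the pair rich in intestinal genes left out it remained called. None of the other 21 skeletal muscle genes passed, and the median of the list was 0.40.

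**Figure D4:**
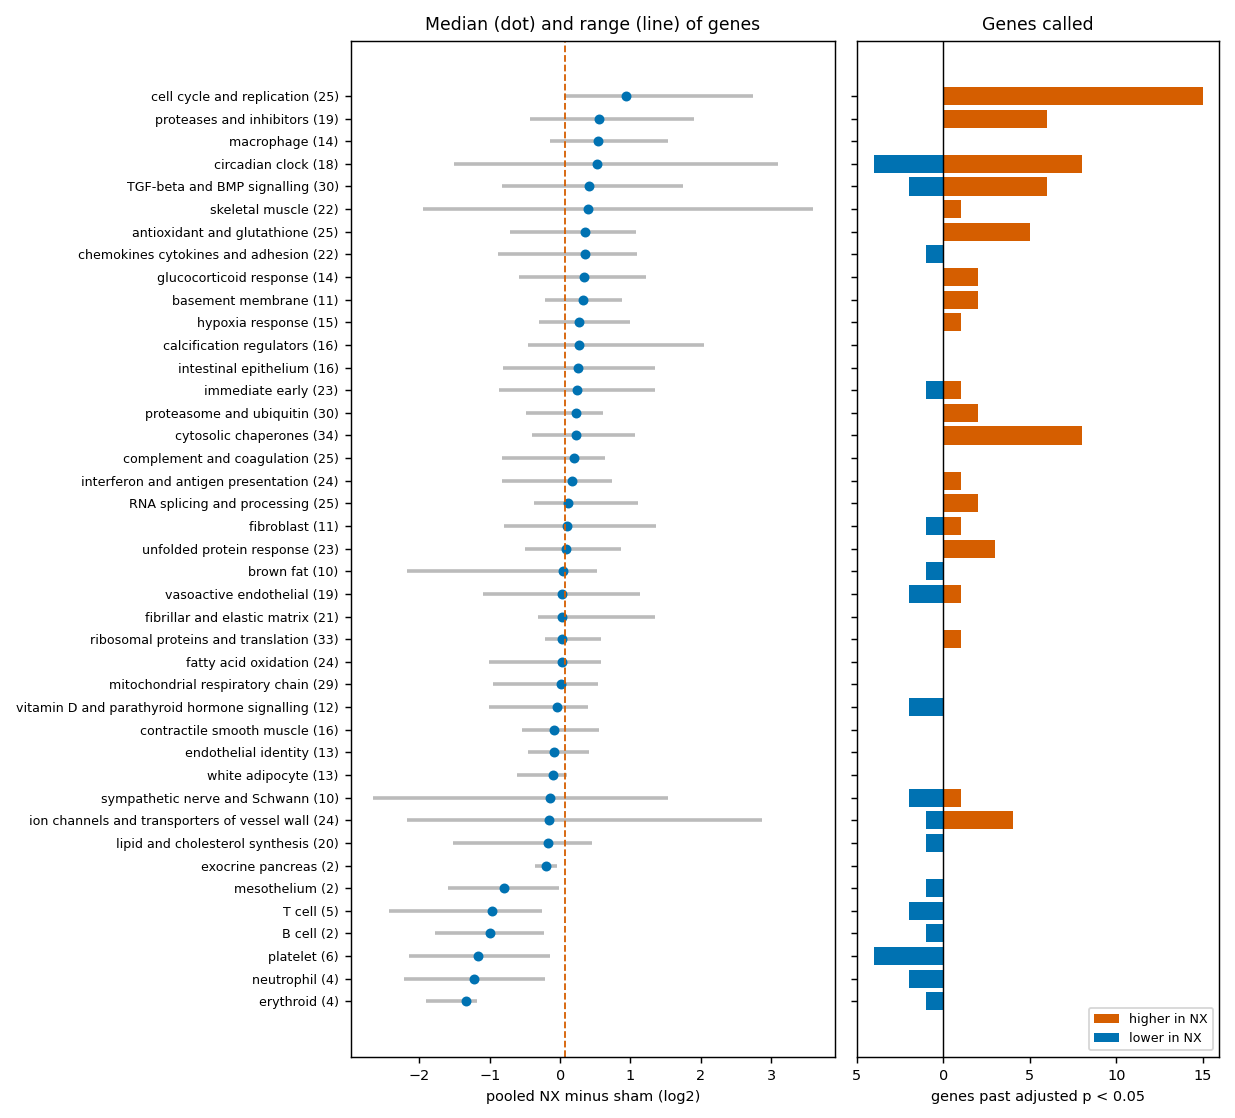
For each of 41 gene lists (number of measured genes in brackets) the left panel shows the median (dot) and range (line) of the pooled change (log2), with the median over all features as a dashed line, and the right panel counts genes that rose (to the right) or fell (to the left). Cell cycle genes have the highest median, 0.94, and erythroid, neutrophil and platelet genes the lowest, -1.34, -1.22 and -1.16.

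The vitamin D receptor did not follow the shared pattern. Vdr was called lower in the pooled test at -1.01 ± 0.28 (adjusted p = 0.0443), but its group changes were 0.02, -1.17, -1.32 and -1.56 for vehicle, paricalcitol, alfacalcidol and VS-105. Sham arrays were at -0.19, 1.26 and 0.65 and overlapped with the 3 NX-vehicle arrays at 0.38, 0.51 and 0.89. Rxra, its dimer partner, fell by 0.65 ± 0.17 (adjusted p = 0.0349) with overlap. The list of 12 genes for vitamin D and parathyroid hormone signalling had a median of -0.04. Vdr and Rxra were the 2 of the 12 that passed, beside 3.09% of all features that fell. Both were lost without sham array 2, NX-paricalcitol array 2 or NX-alfacalcidol array 3. In 10 other fits without 1 array, 1 of the 2 genes passed. Those fits lacked sham array 1 or 3, NX-vehicle array 2 or 3, NX-paricalcitol array 1 or 3, NX-alfacalcidol array 1 or any NX-VS-105 array.

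Further lists with few or no calls marked what did not pass. Spp1, osteopontin, was at 7.14, 5.99 and 7.43 in sham and from 5.97 to 9.91 with a median of 8.27 in NX, with a change of 1.53 that did not pass (adjusted p = 0.114), and Mgp, the matrix Gla inhibitor of calcification, was at 0.49 (adjusted p = 0.160). Acta2, smooth muscle actin, was at -0.38 (adjusted p = 0.115), Ccl2, the monocyte chemokine, at 0.20 (adjusted p = 0.732), Ucp1 of brown fat at -0.82 (adjusted p = 0.640) and Adipoq, adiponectin, at -0.30 (adjusted p = 0.788). None of 16 contractile smooth muscle, 13 endothelial, 16 calcification, 25 complement and coagulation, 29 respiratory chain, 24 fatty acid oxidation or 13 white adipocyte genes passed in the limma test. The medians of these lists were -0.09, -0.09, 0.27, 0.20, 0.01, 0.02 and -0.10, those of the respiratory chain and fatty acid oxidation turning to -0.08 and -0.07 with array medians subtracted. Pooled medians near 0 held group medians of both signs. For white adipocyte genes the medians were -0.59, -0.43, -0.41 and 0.81 for vehicle, paricalcitol, alfacalcidol and VS-105, for fatty acid oxidation -0.41, -0.21, -0.01 and 0.69, and for the respiratory chain -0.29, -0.04, 0.04 and 0.43. The VS-105 group thus had the highest median of the 4 in each of these 3 lists, and the difference between groups was not tested for the lists. Arrays within a group could lie far apart. White adipocyte list means ran from 3.23 to 6.28 with vehicle, 3.81 to 5.88 with paricalcitol and 3.46 to 5.20 with alfacalcidol. They ran from 5.32 to 6.31 with VS-105 and from 4.41 to 5.66 in sham, so the groups overlapped. Without NX-vehicle array 1, 4 calcification genes, 4 complement genes and 1 contractile gene rose and 1 calcification gene fell. Further calls appeared without sham array 3 (4 complement genes higher, 1 lower), NX-VS-105 array 1 (2 calcification genes), NX-VS-105 array 2 (1 complement gene), NX-alfacalcidol array 2 (1 complement gene lower) and NX-paricalcitol array 1 (1 endothelial gene lower).

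Few genes passed in the rest of the lists, beside 6.72% of all features that rose and 3.09% that fell. Proteasome and RNA splicing genes rose in 2 of 30 and 2 of 25 cases, with medians of 0.23 and 0.12. A single gene rose each among 24 interferon and antigen presentation genes and 33 ribosomal and translation genes, with medians of 0.16 and 0.03, and 1 fell each among 22 chemokine and adhesion, 20 lipid synthesis and 10 brown fat genes, with medians of 0.35, -0.17 and 0.04. In both the immediate early list (23 genes, median 0.24) and the fibroblast list (11 genes, median 0.10) 1 rose and 1 fell. None passed in the limma test among 16 intestinal and 2 pancreatic genes. All calls of these lists were lost without sham array 2, and leaving out other single arrays gave counts from 0 to 8. The medians of the brown fat, fibrillar matrix, ribosomal, unfolded protein response and vasoactive lists turned negative with array medians subtracted.

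The vehicle group had 0 features past the adjusted threshold against sham in the limma test on its own, with 1423 (9.04%) at an unadjusted p under 0.05. Paricalcitol had 867 higher (5.51%) and 231 lower (1.47%), alfacalcidol 184 (1.17%) and 91 (0.578%), and VS-105 1240 (7.88%) and 1260 (8.01%). At an unadjusted p under 0.05 the shares were 29.8%, 26.7% and 33.9%. All 3 agonist groups passed together for 114 features higher (0.724%) and 42 lower (0.267%), and all 4 groups at an unadjusted p under 0.05 for 363 higher (2.31%) and 143 lower (0.909%). These 4 comparisons share the sham arrays. Without sham array 2 the counts of the 3 agonist groups were 0, 40 and 1362, and without sham array 1 they were 513, 340 and 1003, while NX-vehicle had 2 without sham array 3. Leaving out 1 array of the group itself took paricalcitol down to 0 (array 2) or 129 (array 3), alfacalcidol to 39 (array 1) or 31 (array 3) or up to 861 (array 2), and VS-105 to 1408 (array 1) or 583 (array 3). Arrays of other groups also moved the first 2: paricalcitol to 568, 697, 542 and 686 without NX-vehicle array 3, NX-alfacalcidol arrays 1 or 3 or NX-VS-105 array 2, and alfacalcidol to 146, 481, 146 and 179 without sham array 3, NX-vehicle arrays 1 or 3 or NX-VS-105 array 2. Of the 393 shared features, 0, 308, 118 and 319 passed in these groups, and 294 passed in NX-vehicle at an unadjusted p under 0.05. The 393 were chosen with these same arrays, so their counts and the medians of shared rises and falls are partly fixed by that choice. The median change of the shared rises was 0.50, 0.84, 0.71 and 0.73 in vehicle, paricalcitol, alfacalcidol and VS-105, and that of the shared falls was -0.61, -0.88, -0.84 and -1.12. Over all features the medians were -0.04, 0.10, 0.14 and 0.06.

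Whether the agonist groups lay nearer to sham than NX-vehicle was taken from a contrast that takes no sham mean, the mean of the 3 agonist groups minus NX-vehicle. Over all features 344 passed (2.19%), 178 higher (1.13%) and 166 lower (1.05%), with 3376 (21.4%) at an unadjusted p under 0.05, and 11 of the 393 shared features did. For the shared rises this difference was positive, away from sham, in 257 of 281 (91.5%), with a median of 0.26, while over all features it was positive in 72.6% with a median of 0.15. For the shared falls it was negative, also away from sham, in 102 of 112 (91.1%), with a median of -0.31, against 27.4% of all features. Vehicle had the smallest of the 4 changes in 214 of the 281 rises and 76 of the 112 falls. The definition of a shared change, which asks all 12 arrays to clear sham, bears on these counts too.

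Among the 30 largest shared changes, 3 passed in this contrast. Tecpr2 was lower in the agonist groups by 2.23 (95% interval of the difference -3.04 to -1.42, adjusted p = 0.0291), Pf4 by 1.17 (-1.71 to -0.62, adjusted p = 0.0446) and Itgb8 by 0.99 (-1.41 to -0.57, adjusted p = 0.0428). For each of them the agonist groups were further from sham. For Tecpr2, 3 of the 12 NX values lay under -2.71, the highest of the 15 array minima, so the size of its difference is less certain. Differences of other genes had intervals that reach 0 or adjusted p above 0.05: Cdk1 was at 1.06 (0.17 to 1.96, adjusted p = 0.174), Npy at -0.93 (-1.72 to -0.15, adjusted p = 0.173) and Gp9 at -0.22 (-0.52 to 0.09, adjusted p = 0.370). For Sphkap, Asip, Asb12, Cdh3 and Krt18 the estimates lay between -0.15 and 0.27, with interval ends from -0.88 to 1.04. The count of 344 depended on single arrays. It was 538 without sham array 2 and 521 without NX-alfacalcidol array 2, 5, 46 and 72 without NX-vehicle arrays 3, 2 and 1, and between 19 and 155 without sham array 3, any NX-paricalcitol array, NX-alfacalcidol arrays 1 or 3, or NX-VS-105 array 2.

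**Figure D5:**
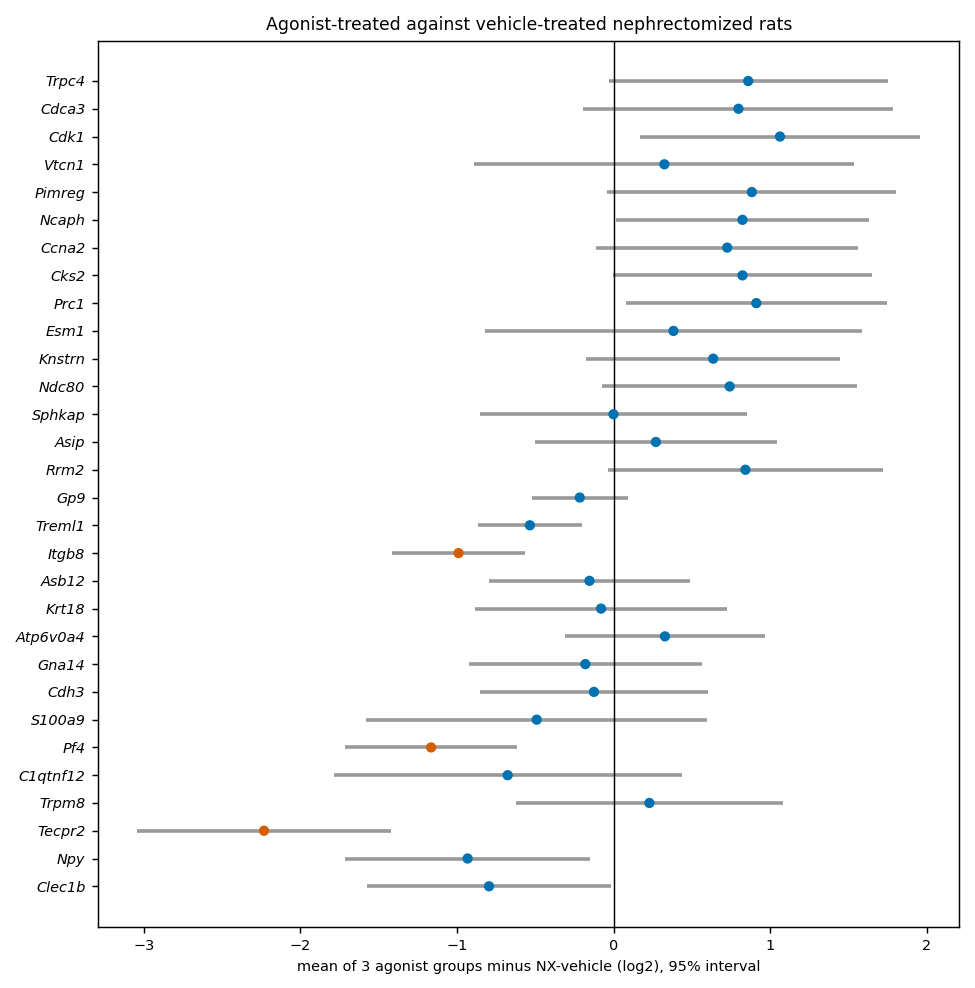
The mean of the 3 agonist groups minus NX-vehicle (log2, horizontal axis) is plotted with its 95% interval for the 30 largest shared changes (vertical axis), in orange where the adjusted p is under 0.05. Tecpr2, Pf4 and Itgb8 are in orange at -2.23, -1.17 and -0.99, and the interval of Sphkap is centred on 0.

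Differences among the 4 NX groups were found for 60 features (0.381%) by the moderated F test, with 3103 (19.7%) at an unadjusted p under 0.05, and for 4 of the 393 shared features. These 4 were Per2, Tef, Wee1 and Medag, the last 2 named after their values were seen. The pooled calls with a symbol and the smallest p in that test, besides Bmal1, were not shared: Pax3, Tcf15, Hrh4 and Iba57 were called lower in the pooled test while the change of the vehicle group was 0.16 or less. Pax3, a transcription factor of muscle and neural crest precursors, was at 4.51, 4.53 and 4.67 in sham, 4.58, 4.70 and 4.61 in NX-vehicle and 3.43, 3.50 and 3.47 in NX-VS-105. Its group changes were 0.06, -0.70, -0.40 and -1.10. Tcf15, a somite factor, had group changes of 0.10, -0.68, -0.45 and -1.05, Hrh4, a histamine receptor, of 0.16, -0.73, -0.43 and -1.15 and Iba57, an iron-sulfur cluster protein, of 0.03, -0.62, -0.37 and -0.97. Without the NX-vehicle group 8 features differed, without the VS-105 group 0 did, and without single arrays the count was 101 (sham 1), 17 (NX-vehicle 3), 92 (NX-paricalcitol 3), 26 (NX-alfacalcidol 3) and 21, 38 and 31 (NX-VS-105 1, 2 and 3).

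The authors' deposited table of comparisons lists 89 genes for NX-vehicle against sham, of which 88 have an unadjusted p under 0.01, 87 a fold change of at least 2 in either direction and 86 both. All 4 of its fold changes lay above sham for 51 genes and below for 20, and for 18 they lay on both sides. In the present test 66 of the 89 passed the pooled threshold and 48 were shared, 32 rises and 16 falls. The list comes from these same arrays, so it is not independent of the counts given here. In the authors' deposited table the signed fold changes of Trpm8 were -5.07, -5.69, -2.22 and -6.44 for vehicle, paricalcitol, alfacalcidol and VS-105.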

How the data were processed

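Aortic RNA of 15 rat samples, 3 per group, was measured on one-colour Agilent arrays. The deposited value table holds log2 signals of 15739 features, made by the authors with Partek 6.0, per the submitters' processing notes. For background correction and scaling between arrays the method is not given in the sources used here. Depth has no counterpart on arrays, and 3 arrays per group limit the precision. The authors' deposited comparison table gives unadjusted p-values and signed fold changes (a score of 1 or more, or of -1 or less), which were quoted and not refitted. Feature names were matched to RefSeq (build GRCr8): 9187 by symbol and 1555 by synonym, 23 were ambiguous and 4974 stayed unmatched.

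Group means were fitted with limma 3.58.1 in R 4.3.3 over all 15 arrays and moderated by eBayes, with Benjamini-Hochberg adjustment over all features. The code was tested on simulated data. Each p-value reflects only how far pools of 2 rats differ. Members and the 41 gene lists were chosen with earlier results of these data known. Named genes were the 15 largest shared rises and falls with 1 symbol and both means above the highest array minimum (-2.71), up to 3 called members per list by p (or 1 uncalled), 16 looked-up genes, and the 5 pooled calls with the smallest F test p. Promoters shown were chosen after the motif search. Alternatives covered scaling, floors, filters, moderation, array weights, a fit of 2 groups, the replicate block and left-out arrays or groups. The other deposited sheets were not used here. Results of a few genes are not reported here.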

Additional observations from a re-analysis of the deposited data

Results flagged for a closer look

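For 8 named genes that passed the pooled test, the change against sham differed among the 4 NX groups. The test was the moderated F test (limma, Benjamini-Hochberg adjustment). Of the 8, Bmal1, Pax3, Tcf15, Hrh4 and Iba57 were named for their small p in this test. Their place here follows from that choice. The adjusted p was 0.00804 for Bmal1, Pax3 and Tcf15, 0.00825 for Hrh4 and Iba57, 0.0105 for Ciart, 0.0117 for Per2 and 0.0268 for Inhbb. Ciart had changes of 1.19, 2.21, 4.97 and 4.04 for vehicle, paricalcitol, alfacalcidol and VS-105, so all 4 groups were above sham by different amounts. Inhbb, the activin beta B subunit, had changes of 0.09, -0.52, -0.52 and -0.72. No test for an outlying sample was made within groups, which held 3 samples each.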

How the results depend on the processing

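Directions reversed for 4 looked-up genes, none of which passed the pooled test. Adipoq was at 0.15 and Ucp1 at 0.13 without the 3 arrays rich in muscle or intestinal transcripts. Ccl2 was at -0.18 with array weights, -0.032 without the NX-vehicle group and -0.029 without the NX-paricalcitol group. Col1a1 was at 0.050 after quantile normalization and 0.055 without the VS-105 group. In the fits without 1 array, Adipoq ranged from -0.67 to 0.035, Ccl2 from -0.18 to 0.45 and Col1a1 from -0.17 to 0.11, with the turned signs without sham array 2 (Adipoq, Ccl2), sham array 1 or NX-VS-105 array 1 (Col1a1, 0.11 and 0.0086).

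Counts moved widely. Without 1 array, pooled rises ranged from 12 to 1637 and falls from 20 to 873, shared rises from 11 to 823 and shared falls from 20 to 393. Paricalcitol ranged from 0 to 1482, alfacalcidol from 31 to 861, VS-105 from 583 to 2778, vehicle from 0 to 2, the agonists against vehicle from 5 to 538 and the F test from 17 to 101. Subtracting array medians gave 1083 pooled falls, 272 shared falls, 174 agonist calls and 94 F test calls, and quantile normalization gave 953, 240 and 183 for the first 3 of these, with 1 vehicle call. Without moderation there were 643 rises, 271 falls, 529 paricalcitol, 101 alfacalcidol, 103 agonist and 30 F test calls. A trended robust fit gave 470 alfacalcidol and 110 F test calls. Array weights did not converge and gave 1684 rises, 824 falls, 3671 paricalcitol, 3723 alfacalcidol, 1649 vehicle, 10543 agonist and 11620 F test calls, so these carry little weight. The fit of 2 groups gave 186 rises and 49 falls, 138 and 43 of them shared. Leaving out NX-vehicle gave 2331 rises and 918 falls, 1472 and 325 shared, and 8 F test calls. Leaving out paricalcitol gave 133 and 96, 105 and 45 shared, 199 agonist and 94 F test calls. Leaving out alfacalcidol gave 557 rises, 594 paricalcitol, 28 agonist and 32 F test calls, and leaving out VS-105 gave 271 rises, 90 falls, 661 paricalcitol, 0 agonist and 0 F test calls. Without the 3 arrays rich in muscle or intestinal transcripts there were 133 rises and 82 falls, 105 and 60 shared, 1012 VS-105, 2 agonist and 3 F test calls. The cause was not tested in any of these.

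Replicate numbers did not pair the arrays across all groups. Of 30 same-numbered pairs 9 correlated over 0.1, with r from -0.45 to 0.62, and 4 of 15 arrays correlated best with their own number. Between NX-vehicle and NX-paricalcitol the same-numbered pairs had r of 0.62, 0.52 and 0.26. The other pairs of these groups ran from -0.56 to 0.19. Same-numbered pairs of sham and NX-vehicle had r of -0.18, -0.45 and 0.02. With the replicate block there were 480 rises, 252 falls, 294 paricalcitol, 104 alfacalcidol, 32 agonist and 31 F test calls.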

Other observations

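Features that passed under all 29 alternatives and belong to none of the gene lists included a receptor, an ion channel and a cytoskeletal adaptor. Fzd8, a Wnt receptor, was at 2.39, 2.15 and 2.44 in sham and from 0.96 to 2.08 with a median of 1.59 in NX, a change of -0.77 ± 0.12 (limma, adjusted p = 0.00969). Tpcn2, a lysosomal channel, changed by -0.77 ± 0.12 (adjusted p = 0.00969) and Sh3pxd2a, the podosome adaptor TKS5, by -1.08 ± 0.14 (adjusted p = 0.00430). Fam107a, an actin-binding protein that stress hormones induce, changed by -0.94 ± 0.13 (adjusted p = 0.00488) and Pdzd2, a PDZ domain protein, by -0.83 ± 0.13 (adjusted p = 0.0114).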
